A study of Mus musculus and Homo sapiens with 28 samples.

Results

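Keratins and keratin-associated proteins (KRTAP) were examined in 786-O, an established human renal carcinoma cell line, with and without a CHK1 inhibitor. Members were found by gene symbol in the human expression table: KRT or KRTAP genes by their family number, without pseudogene and antisense names. The symbols matched 149 of 56269 rows, 55 keratins and 94 KRTAP genes. Of these, 94 had a count of 0 in all 4 libraries, and the 55 that varied between libraries (40 keratins and 15 KRTAP genes) are described below.

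RNA was sequenced in bulk from cultured cells. The LY2606368 libraries (n = 2) came from parental 786-O cells labelled with the CHK1 inhibitor LY2606368, and the untreated libraries (n = 2) from parental 786-O cells without inhibitor. All 4 libraries carry the genotype label WT. The treatment text gives 25 nM for 48 h but names the compound LY2603618, so which of these compounds was used is not settled here. CHK1 is the kinase that ATR activates when DNA replication stalls. The cells came from 2 experiments, and each group has a library numbered 1 and 1 numbered 2. Nothing further is said of the cultures. The p-values therefore reflect the variation among these 4 libraries alone, which may be technical. The main fit did not pair libraries by their number. The whole series has 28 samples, and the mouse tumours among them were not used.

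Keratins are the intermediate filament proteins of epithelial cells. A filament forms from pairs of an acidic type I and a basic type II chain, so the families are expressed in partnerships: KRT8 with KRT18 or KRT19 in simple epithelia such as the kidney tubule, KRT5 with KRT14 in the basal layer of the epidermis, and KRT6 with KRT16 or KRT17 in wounded or rapidly dividing epidermis. Hair keratins build the hair shaft, where the cysteine-rich KRTAP proteins crosslink them. Clear cell renal carcinomas are known for KRT8 and KRT18.

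Values were deposited as variance-stabilised log2 values, from which whole read counts per gene could be recovered. Depth was 21447859 and 20834400 counts in LY2606368 replicates 1 and 2, against 23956007 and 23492424 in untreated replicates 1 and 2. LY2606368 replicate 1 had the most genes with a count, 24594, against 23297 in LY2606368 replicate 2 and 22158 and 22326 in the untreated libraries. The 8 genes taken as markers of the line all averaged at least 100 counts, among them the nephron factor PAX8 with 5398 and 6393 counts under LY2606368 and 8320 and 7757 in untreated cells. The renal transcription factor PAX2 fell by 1.84 ± 0.17 (log2, SE; limma adjusted p = 0.0246), as did the carbonic anhydrase CA12, by 1.32 ± 0.13 (adjusted p = 0.0247). Fibroblast markers summed to 4.90 and 8.35 CPM (counts scaled to the library total) under LY2606368 and 7.18 and 19.3 CPM in untreated cells, and endothelial markers to 0.653 and 0.432 CPM under LY2606368 and 0.209 and 0.681 CPM in untreated cells, so both overlapped. Among them VWF had 7 and 4 counts under LY2606368 and 0 in untreated cells and was called higher (1.45 ± 0.21, limma adjusted p = 0.0362).

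KRTAP2-3, a hair cortex keratin-associated protein gene, stood 18.9-fold higher under LY2606368. KRT80, KRT34, KRT81 and KRT20 also rose, whereas KRT19 fell to 0.358 of its untreated level in CPM. In limma over 29353 rows, 5 of the 55 members passed an adjusted p of 0.05 as higher and 1 as lower, and 49 did not pass. Over all rows, 7.05% were called higher and 6.16% lower. Of the 8 members with a mean of at least 100 counts, 2 were higher and 1 lower, where 15.3% and 15.1% of all such rows were called, or 30.4% in either direction. The mean is taken over both groups. KRTAP2-3, 1 of the 2, had 36 and 45 counts in untreated cells and reached that mean only through its LY2606368 libraries. Of the 47 members below that mean, 3 were called higher, where 2.42% of such rows were, and none lower, where 1.11% were. The median difference over the members was 0.33 (log2), against 0.08 over all rows tested. However, 31 of the 55 members (56.4%, against 15.9% of all rows) had no count in either untreated library, so their differences could only be positive. A gene with 1 count in LY2606368 replicate 2 and none elsewhere, such as KRT25, has that same difference of 0.33. Among the 11 members with a mean value of at least 5 (log2) the median was 0.50, against -0.02 over all such rows. This filter also uses both groups. KRT7, at 5.38 under LY2606368 and 4.68 in untreated cells, entered only through its LY2606368 value, so this median is not free of the filter. In CPM, both LY2606368 libraries lay above both untreated libraries for 18 members (27.5% of all rows) and below them for 4 (24.9% of all rows). In bulk RNA, fewer cells that express a gene and less RNA per cell cannot be told apart.

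**Figure D1:**
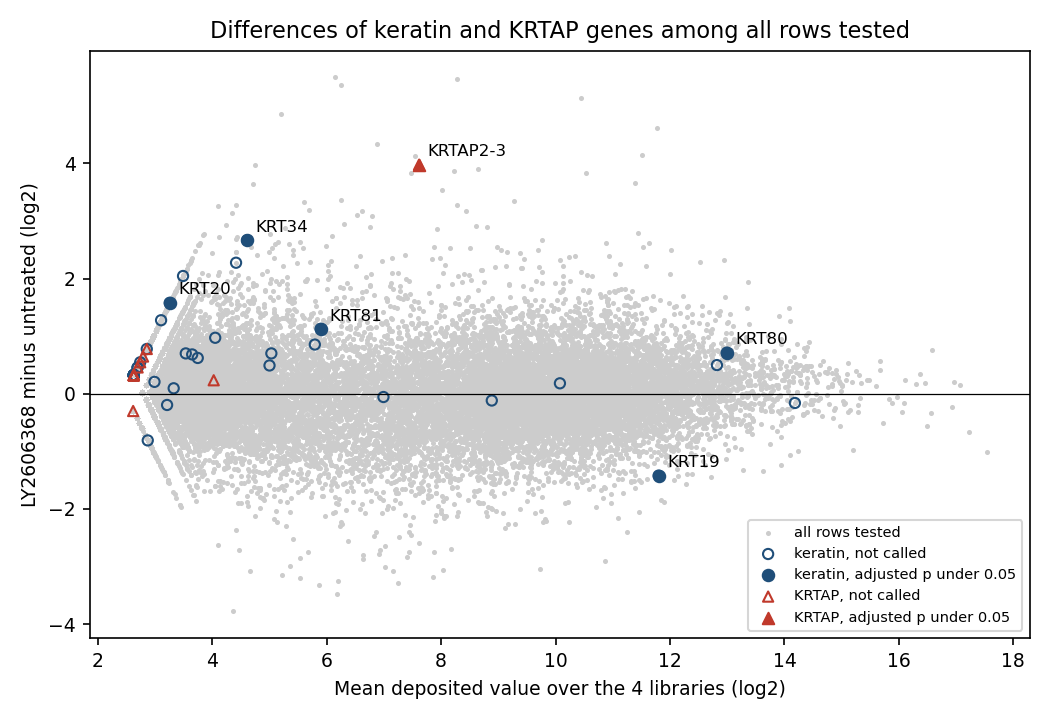
Difference between LY2606368 and untreated cells (y axis, log2) against the mean deposited value over the 4 libraries (x axis, log2) for all 29353 rows tested (grey), keratins (blue circles) and KRTAP genes (red triangles), with filled symbols for members with a limma adjusted p under 0.05. KRTAP2-3 stands at 3.98, and KRT19 is the only filled symbol below 0, at -1.42.

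The calls depend on how the spread between libraries was estimated. With no mean-variance trend, limma called 0 of 29353 rows and 0 members (8654 rows and 13 members had an unadjusted p under 0.05), and the adjusted p of the 6 called members was 0.0564 to 0.0613. Leaving out untreated replicate 1 or untreated replicate 2 also ended all 6 calls (limma adjusted p 0.127 to 0.151 and 0.137 to 0.144), again with 0 rows called in all (7475 and 7039 rows at an unadjusted p under 0.05). Without LY2606368 replicate 1 or replicate 2, KRTAP2-3 kept its call and KRT19, KRT80, KRT34 and KRT81 lost theirs. KRT20 was also called there, but a row at 0 in both untreated libraries then has no spread left and passes with a single count, so that call says nothing about stability. When only the 12731 rows with a mean value of at least 5 (log2) were tested, KRTAP2-3, KRT19, KRT80 and KRT81 passed with all libraries (adjusted p 0.000102 to 0.00596) and without any 1 of the 4 (5.02e-06 to 0.0306). KRT34 and KRT20 lie below that mean and were not tested there.

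KRT8, the type II keratin of simple epithelia, had the most counts of any keratin. It had 15844 and 15400 counts under LY2606368, against 20640 and 20057 in untreated cells. This was 739 CPM in each LY2606368 library, against 862 and 854 CPM in the untreated libraries, so the groups did not overlap. The difference of -0.16 ± 0.05 (log2, SE) did not pass (limma adjusted p = 0.125). It passed under quantile normalisation (-0.33, adjusted p = 0.0312) and with voom on library totals (-0.21, 0.0286), within a range of 0.0286 to 0.427 over 17 alternatives. The table holds 50 KRT8 pseudogenes, whose reads may be confused with those of KRT8 and which summed to 1.45% and 1.26% of its counts under LY2606368 and 0.722% and 0.768% in untreated cells. One of them, KRT8P12, was higher under LY2606368, with 168 and 152 counts against 114 and 112 in untreated cells (limma adjusted p = 0.0419).

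Of the type I partners of KRT8, KRT19 fell and KRT18 did not pass. KRT18, its usual partner, had 348 and 374 CPM under LY2606368, against 297 and 237 CPM in untreated cells. Both treated libraries lay above both untreated ones, but the 0.50 ± 0.15 (log2, SE) did not pass over all rows (limma adjusted p = 0.111) and did pass among rows with a mean of at least 5 (adjusted p = 0.0183; range over 17 alternatives 0.00307 to 0.422). KRT19, the small keratin that lacks most of the tail, had 1832 and 2025 counts under LY2606368, against 5604 and 6494 in untreated cells. Its 4 values did not overlap, and KRT19 fell by 1.42 ± 0.12 (log2, SE; limma adjusted p = 0.0232; -1.52 to -1.32 over 17 alternatives). Counted within each library, there were 0.246 and 0.260 KRT19 counts per KRT18 count under LY2606368, against 0.789 and 1.17 in untreated cells. Likewise there were 0.471 and 0.506 KRT18 counts per KRT8 count under LY2606368, against 0.344 and 0.278 in untreated cells.

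Of the other simple epithelial keratins, KRT20, known from intestinal and urothelial surface cells, had 6 and 7 counts under LY2606368 and 0 in both untreated libraries. Against the limit that a count of 0 allows (3 counts over the group) it was 4.86-fold higher, with a lower 95% counting limit of 3.42-fold. The KRT20 difference of 1.58 ± 0.17 (log2, SE) was called (limma adjusted p = 0.0264). KRT7, a keratin of ducts and of the collecting system that clear cell tumours usually lack, had 25 and 31 counts under LY2606368, against 14 and 19 in untreated cells (1.90-fold in CPM, 95% counting interval 1.22 to 3.02). Its difference of 0.70 ± 0.21 did not pass (limma adjusted p = 0.113). KRT23 had 1 count in all. Of the 6 simple epithelial keratins, 1 rose, 1 fell and 4 did not pass (7.05% of all rows were called higher and 6.16% lower).

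**Figure D2:**
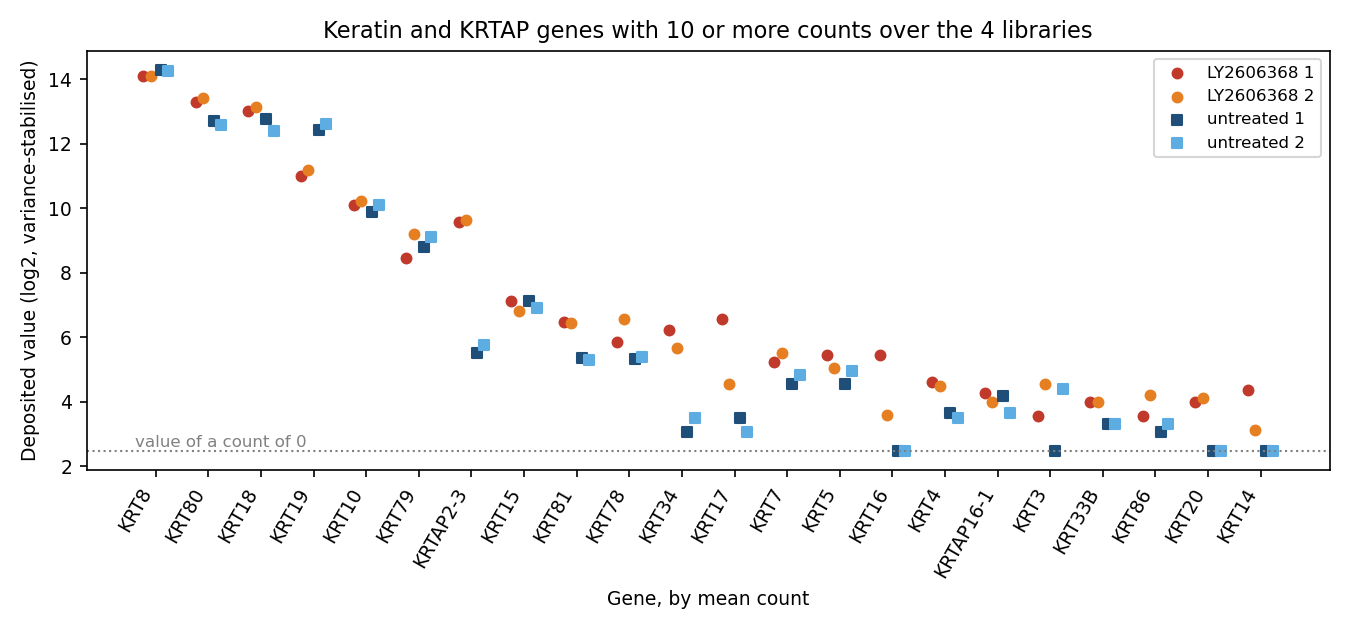
Deposited value (y axis, log2, variance-stabilised) of the 22 members with 10 or more counts over the 4 libraries, ordered by mean count (x axis), with LY2606368 libraries as circles and untreated libraries as squares; the dotted line marks the value of a count of 0. The LY2606368 circles of KRTAP2-3, KRT80, KRT81 and KRT34 lie above the untreated squares, and those of KRT19 below.

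KRT80 was the called keratin with the most counts among those that rose. It is a type II epithelial keratin found at cell margins in stratified epithelia and had 9003 and 9510 counts under LY2606368, against 6797 and 6365 in untreated cells. The groups did not overlap, and the rise was 0.71 ± 0.08 (log2, SE; limma adjusted p = 0.0262), or 1.58-fold in CPM (95% counting interval 1.54 to 1.61). There were 0.568 and 0.618 KRT80 counts per KRT8 count under LY2606368, against 0.329 and 0.317 in untreated cells.

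The remaining suprabasal keratins did not pass. KRT10, the type I keratin of the upper epidermis, had 982 and 1041 counts under LY2606368 and 957 and 1126 in untreated cells (0.18 ± 0.11, limma adjusted p = 0.411). KRT79 had 306 and 505 counts under LY2606368 and 446 and 557 in untreated cells, with replicate 2 above replicate 1 in both groups (0.589 and 0.785 of it in CPM). KRT78 had 43 and 74 counts under LY2606368, against 31 and 33 in untreated cells (0.85 ± 0.30, adjusted p = 0.152). It passed among rows with a mean of at least 5 (limma adjusted p = 0.0485; range over 17 alternatives 0.0210 to 0.457). KRT4, a mucosal keratin, had 13 and 11 counts under LY2606368, against 4 and 3 in untreated cells, just short of the threshold (0.97 ± 0.18, adjusted p = 0.0528). KRT3, a corneal keratin, had 3 and 12 counts under LY2606368 and 0 and 12 in untreated cells, so that its counts lay higher in replicate 2 of both groups. KRT13, a mucosal partner of KRT4, had 4 and 0 counts under LY2606368 and 0 and 2 in untreated cells. KRT2, an epidermal keratin, had 0 counts in both LY2606368 libraries and 1 and 3 in the untreated ones. KRT9, the keratin of palms and soles, had 2 counts, both in LY2606368 replicate 1. Of the 9 suprabasal members, 1 rose and 8 did not pass (7.05% of all rows were called higher).

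The summed level of all keratin transcripts did not separate the groups. It was 1675 and 1759 CPM under LY2606368 and 1744 and 1720 CPM in untreated cells, so the ranges overlapped. KRT8, KRT18, KRT19, KRT80 and KRT10 together made up 97.7% and 97.6% of keratin counts under LY2606368 and 98.4% and 98.0% in untreated cells. Within this sum KRT19 held 5.10% and 5.52% under LY2606368, against 13.4% and 16.1% in untreated cells, and KRT80 held 25.1% and 25.9%, against 16.3% and 15.8%. Type I counts per type II count were 0.418 and 0.430 under LY2606368, against 0.494 and 0.491 in untreated cells. These shares are of counts and were not divided by transcript length, so they compare libraries and not genes. An exact permutation test of such a ratio between 2 and 2 libraries cannot go below p = 0.333, and none is given.

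**Figure D3:**
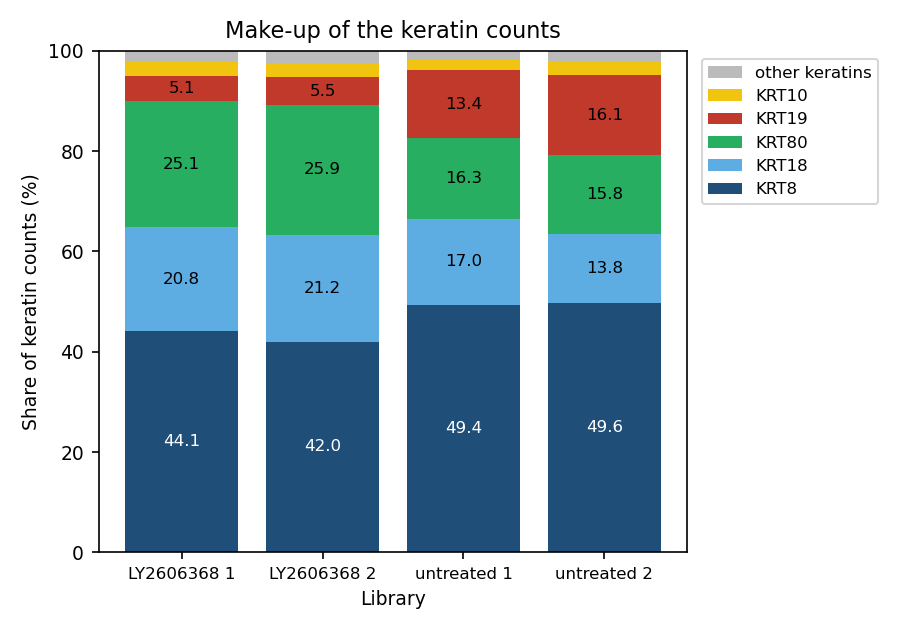
Share of all keratin counts (y axis, %) held by KRT8, KRT18, KRT80, KRT19, KRT10 and the other keratins in each library (x axis), LY2606368 libraries on the left. The KRT19 segment is 5.10% and 5.52% under LY2606368, against 13.4% and 16.1% in untreated cells, and the KRT80 segment 25.1% and 25.9%, against 16.3% and 15.8%.

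The keratins of the basal epidermis and of wounded epidermis were low and uneven. KRT17, a wound-induced type I keratin, had 75 and 12 counts under LY2606368, against 3 and 1 in untreated cells. KRT16, induced with it, had 30 and 3 counts under LY2606368 and 0 in both untreated libraries. KRT14, the basal type I keratin, had 10 and 1 counts under LY2606368 and 0 in both untreated libraries. For these 3 genes both treated libraries lay above both untreated ones, but LY2606368 replicate 1 was far above replicate 2: the CPM ratio between them was 6.07 for KRT17 (95% counting interval 3.28 to 12.3), 9.71 for KRT16 (3.02 to 49.7) and 9.71 for KRT14 (1.38 to 422). None passed (2.27 ± 0.77, 2.04 ± 0.71 and 1.28 ± 0.49, log2, SE; limma adjusted p = 0.145, 0.152 and 0.186). In CPM, KRT17 was 24.4-fold higher (95% counting interval 9.20 to 91.6). For KRT16, with no untreated count, the lower 95% counting limit was 9.49-fold, with most of its counts in LY2606368 replicate 1. KRT17 passed in only 2 of 12 alternatives, with the replicate number as a block (limma adjusted p = 0.0434) and with library medians removed (0.0304). With robust empirical Bayes KRT16 and KRT14 passed (limma adjusted p = 0.0360 and 0.0456), and KRT16 also with library medians removed (0.0394), within ranges over 12 alternatives of 0.00624 to 0.478 and 0.00624 to 0.505. Their passes without LY2606368 replicate 1 or replicate 2 carry no weight, since both untreated libraries are at 0 and no spread is left.

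KRT5 and KRT15 of the basal layer did not pass. KRT5, which pairs with KRT14, had 30 and 20 counts under LY2606368 and 14 and 22 in untreated cells (0.49 ± 0.26, limma adjusted p = 0.331). Its counts overlapped, but in CPM the treated libraries lay above, at 1.40 and 0.960 against 0.584 and 0.936. KRT15, a type I keratin of basal and hair bulge cells, had 115 and 89 counts under LY2606368 and 133 and 114 in untreated cells (-0.06 ± 0.17, adjusted p = 0.842), and it was positive in 5 of 17 alternatives. KRT6B had 0 and 2 counts under LY2606368 and 0 in untreated cells, and KRT6A and KRT6C had none. TP63, the transcription factor that defines basal keratinocytes, had 8 and 1 counts under LY2606368 and 0 in both untreated libraries, with the same library on top. Reads of KRT16 and KRT17 may be shared with their pseudogenes, which held 6 and 2 counts (KRT16) and 2 and 2 counts (KRT17) under LY2606368 and 0 in untreated cells. A KRT16 pseudogene was called higher on no more than these 6 and 2 counts, so that call rests on few reads.

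Markers of keratinocytes were checked as a list, since these keratins belong to that cell type. KRT5 and KRT14, described above, are among the 8 markers, so the list is not separate from the members. The sum of all 8 was 11.2 and 15.3 CPM under LY2606368, against 2.92 and 4.60 CPM in untreated cells. Of the 8, 1 passed, the hemidesmosome collagen COL17A1 (7.05% of all rows were called higher). Without COL17A1 the sum was 4.90 and 3.07 CPM under LY2606368 and 2.30 and 3.58 CPM in untreated cells, so the groups overlapped. TP63, KRT14 and SERPINB5 were at 0 in both untreated libraries. The part of these markers in the results was not tested.

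Among hair shaft keratins, 2 of 12 members rose and 10 did not pass. Over all rows 7.05% were called higher, and 2.42% of rows with a mean under 100 counts, where all 12 lie. Of the 12, 8 had at most 3 counts in any library and 7 had none in untreated cells. KRT34, a type I hair keratin, had 58 and 35 counts under LY2606368, against 1 and 3 in untreated cells. The groups were far apart, and the rise was 2.67 ± 0.31 (log2, SE; limma adjusted p = 0.0272), or 26.1-fold in CPM (95% counting interval 9.86 to 97.8). KRT81, a type II keratin of the hair cortex, had 70 and 67 counts under LY2606368, against 32 and 30 in untreated cells. Its replicates lay close together, and it rose by 1.13 ± 0.14 (adjusted p = 0.0285), or 2.48-fold (1.82 to 3.40).

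The other hair keratins had few reads. KRT86, a closely similar relative of KRT81 with which it may exchange reads, had 3 and 8 counts under LY2606368, against 1 and 2 in untreated cells (limma adjusted p = 0.237). KRT33B, a type I hair keratin, had 6 and 6 counts under LY2606368, against 2 and 2 in untreated cells (0.68 ± 0.17, adjusted p = 0.0828). KRT33A had 1 and 2 counts under LY2606368 and 0 in untreated cells, and KRT32 had 2 and 2 under LY2606368 and 3 and 1 in untreated cells. KRT37 had 3 counts in LY2606368 replicate 1, and KRT38, KRT40, KRT83 and KRT84 had 1 each in a LY2606368 library. KRT31 and KRT85, main keratins of the hair cortex, had 1 and 0 counts over all 4 libraries, and HOXC13, the regulator of hair keratin genes, had 0 and 2 counts under LY2606368 and 0 in untreated cells. The 6 inner and outer root sheath keratins that varied had no count in untreated cells and 1 count each under LY2606368. KRT222, given no role here, had 1 and 1 counts under LY2606368 and 2 and 2 in untreated cells.

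KRTAP2-3 had 682 and 679 counts under LY2606368, against 36 and 45 in untreated cells. This was 31.8 and 32.6 CPM under LY2606368, against 1.503 and 1.92 CPM in untreated cells, a ratio of 18.9 (95% counting interval 15.1 to 23.9). The treated libraries lay close together, and both stood far above the untreated ones. The rise of 3.98 ± 0.13 (log2, SE) was called (limma adjusted p = 0.0232; 3.62 to 4.27 over 17 alternatives). It was the largest difference of any member.

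No other KRTAP gene passed. The 3 other KRTAP2 genes were nearly silent: KRTAP2-2 had 1 and 2 counts under LY2606368, KRTAP2-4 had 1 and 0, and both had 0 in untreated cells, while KRTAP2-1 had none. KRTAP2 genes are very alike in sequence, and the sources used here do not give how reads that fit more than 1 of them were counted, so the counts belong to the symbol KRTAP2-3 with that reserve. KRTAP16-1, the second KRTAP gene by count, had 9 and 6 counts under LY2606368 and 9 and 4 in untreated cells (limma adjusted p = 0.571). The other 13 KRTAP members had at most 3 counts in any library. Together the 15 KRTAP genes held 702 and 692 counts under LY2606368, against 46 and 49 in untreated cells. KRTAP2-3 made up nearly all of this signal under LY2606368 and most of it in untreated cells (36 and 45 counts).

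Of the 149 matching names, more had a read under LY2606368. A count of at least 1 was found for 45 and 35 under LY2606368, against 22 and 23 in untreated cells. Reduced to the smallest library's depth, the expected numbers were 44.5 and 35.0 under LY2606368, against 21.4 and 22.7 in untreated cells. Over the whole table the same reduction gave 24470 and 23297 genes under LY2606368, against 21713 and 21951 in untreated cells. The whole table holds many well-covered genes, and rows with few counts leaned the same way more strongly. Of all varying rows with at most 3 counts in any library, 42.4% had none in both untreated libraries and 21.3% none in both LY2606368 libraries. For the 32 such members these shares were 87.5% and 6.25%. LY2606368 replicate 1 alone held 18 members with a single count, against 9 in LY2606368 replicate 2 and 4 and 2 in the untreated libraries. It also held the most single-count genes in the whole table, 4272, against 3797 in LY2606368 replicate 2 and 3209 and 3126 in untreated cells. A single count lies under the limit of 3 counts that a count of 0 allows, so none of these genes can be called expressed in 1 group alone. The antisense gene KRTAP5-AS1, left out by name, had 3 and 5 counts under LY2606368 and 0 in untreated cells (limma adjusted p = 0.0423).

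**Figure D4:**
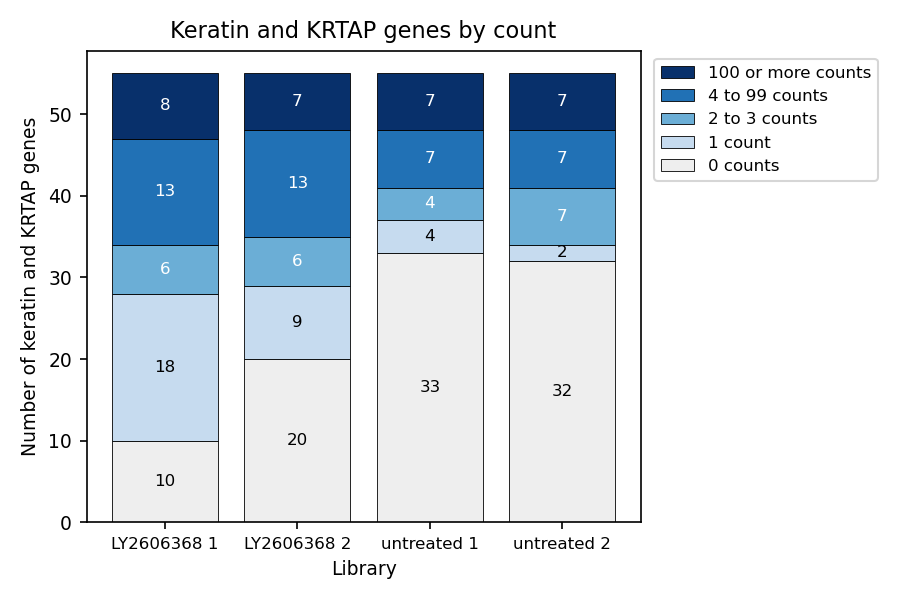
Number of the 55 members (y axis) with 0, 1, 2 to 3, 4 to under 100, and 100 or more counts in each library (x axis), LY2606368 libraries on the left. There were 10 and 20 members with no count under LY2606368, against 33 and 32 in untreated cells, and 7 or 8 members with 100 or more counts in each library.

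Genes that keratins work with were counted from 6 lists of 121 genes, of which 87 were tested. Among them 8 rose, 7 fell and 72 did not pass. Over all rows 13.2% were called, and 30.4% of rows with a mean of at least 100 counts. They are given by structure, starting with the anchors of the filaments.

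Hemidesmosomes tie keratin filaments to the basement membrane. Of 9 genes, 2 rose, 1 fell and 6 did not pass. On this list 8 genes averaged at least 100 counts, where 30.4% of all such rows were called in either direction. COL17A1, the transmembrane collagen, had 135 and 254 counts under LY2606368, against 15 and 24 in untreated cells (2.95 ± 0.39, log2, SE; limma adjusted p = 0.0320). LAMB3, a chain of laminin-332, had 12860 and 18900 counts under LY2606368, against 3866 and 3365 in untreated cells (2.33 ± 0.24, adjusted p = 0.0254). LAMA3, another chain of the same laminin, fell to 2438 and 2905 counts under LY2606368, against 5585 and 6923 in untreated cells (0.479-fold in CPM, adjusted p = 0.0432). PLEC, the plakin that holds keratin to the plaque, had the most counts and did not pass (-0.08 ± 0.08, adjusted p = 0.454).

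Desmosomes join keratin networks between cells. Of 14 genes, 1 fell and 13 did not pass, but only 5 averaged at least 100 counts. DSP, for example, had 2 and 2 counts under LY2606368 and 0 and 1 in untreated cells. JUP had 3 and 2 counts under LY2606368 and 3 and 5 in untreated cells. For genes this low, not passing does not show that they were unchanged. The one that fell was PKP4, an armadillo protein of cell junctions, with 1837 and 1875 counts under LY2606368, against 3592 and 3386 in untreated cells (-0.69 ± 0.07, limma adjusted p = 0.0255). DSG2, the desmosomal cadherin of simple epithelia and the gene with the most counts on the list, differed by -0.06 ± 0.06 (adjusted p = 0.520).

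Of 14 other intermediate filament genes tested, 1 was called higher, 2 fell and 11 did not pass. SYNM, synemin, had 225 and 222 counts under LY2606368, against 797 and 940 in untreated cells (-1.69 ± 0.11, log2, SE; limma adjusted p = 0.0232). LMNB1, a lamin of the nuclear envelope, had 2879 and 2408 counts under LY2606368, against 6873 and 6934 in untreated cells (-1.17 ± 0.09, adjusted p = 0.0232). VIM, vimentin, the mesenchymal filament that renal carcinoma cells share, had 25723 and 22216 counts under LY2606368, against 34309 and 33756 in untreated cells, and did not pass (-0.29 ± 0.08, adjusted p = 0.0918; it passed in 6 of 17 alternatives, range 0.0102 to 0.346). PRPH, a neuronal filament, was called on 2 and 2 counts against 0 and 0.

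Cornified envelope genes, which build the protein shell of the outermost epidermal cells, were mostly silent: 31 of 53 had no count in any library. Of the 22 tested, 2 were called higher, 2 fell and 18 did not pass. ALOXE3, an epidermal lipoxygenase, had 265 and 673 counts under LY2606368, against 3 and 4 in untreated cells (5.36 ± 0.52, limma adjusted p = 0.0246). IVL, involucrin, was called on 2 and 2 counts against 0 and 0. ABCA12, a lipid transporter, fell to 88 and 98 counts under LY2606368, against 346 and 394 in untreated cells (-1.67 ± 0.13, adjusted p = 0.0232), and EVPL, envoplakin, to 116 and 112 counts, against 228 and 260 (-0.82 ± 0.12, adjusted p = 0.0344). FLG, filaggrin, which bundles keratin filaments and had the most counts on the list, had 1771 and 1236 counts under LY2606368 and 2745 and 1638 in untreated cells (adjusted p = 0.542).

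Among 21 regulators of epithelial and hair genes tested, 2 rose, 1 fell and 18 did not pass. KLF4, a factor of epithelial barrier formation, had 436 and 505 counts under LY2606368, against 92 and 155 in untreated cells (2.09 ± 0.28, log2, SE; limma adjusted p = 0.0324). KLF5, an epithelial factor of the same family, had 279 and 220 counts under LY2606368, against 63 and 91 in untreated cells (1.79 ± 0.22, adjusted p = 0.0295). ELF3, an epithelial ETS factor, fell to 79 and 63 counts under LY2606368, against 451 and 834 in untreated cells (-2.74 ± 0.34, adjusted p = 0.0296). Of 7 hair shaft and keratin partner genes 1 rose, PNN, which encodes pinin, a keratin-binding and nuclear speckle protein (0.41 ± 0.06, adjusted p = 0.0362), and 6 did not pass.

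**Figure D5:**
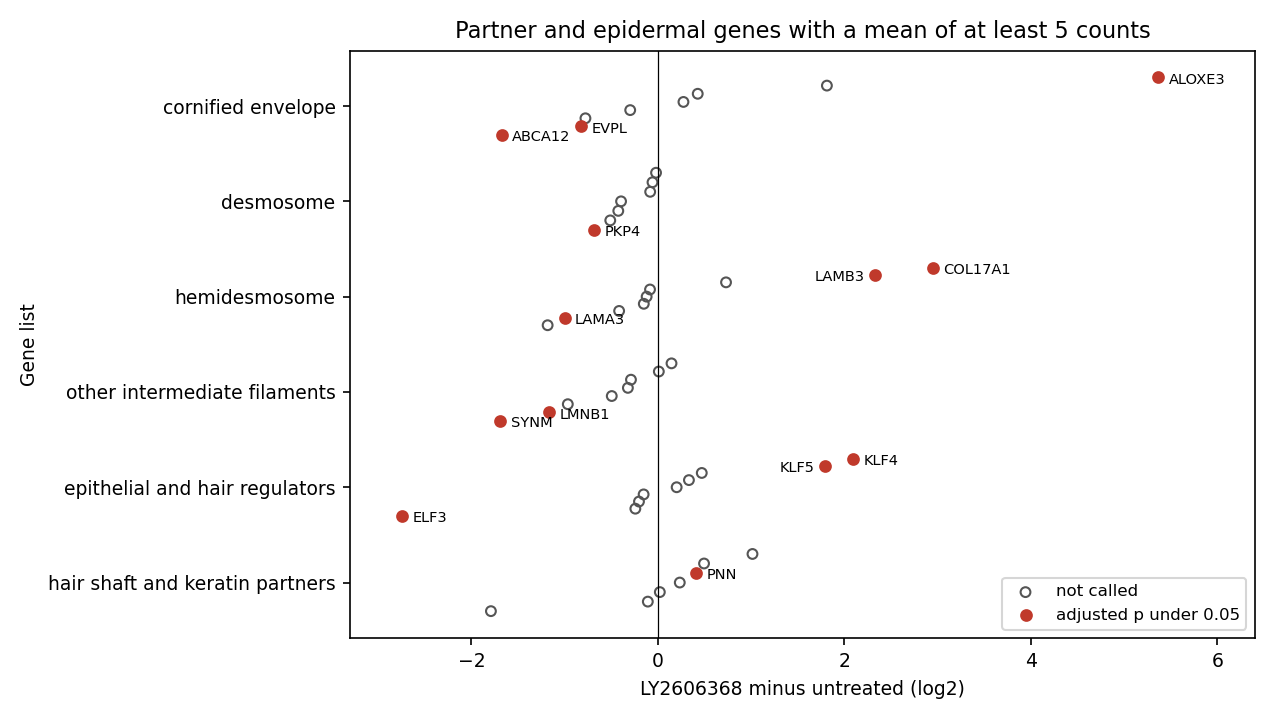
Difference between LY2606368 and untreated cells (x axis, log2) for genes of the 6 lists (y axis) with a mean of at least 5 counts, with filled points for a limma adjusted p under 0.05. COL17A1 and LAMB3 stand to the right at 2.95 and 2.33 and LAMA3 to the left of 0, while the desmosome genes shown lie left of 0.

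The calls on these lists share the dependence given for the keratins. All 15 ended with no mean-variance trend and without untreated replicate 1 or replicate 2, and 11 ended without LY2606368 replicate 1 or replicate 2. LMNB1 and ALOXE3 passed in both of these fits, and the call of ALOXE3 also ended with voom on library totals or median-ratio size factors (limma adjusted p = 0.0520 and 0.0540; range over 17 alternatives 8.05e-05 to 0.162). IVL and PRPH passed in 2 of 12 alternatives, the fits without an LY2606368 library, where rows at 0 in both untreated libraries have no spread left and a single count is called, so these passes say nothing about stability. The 13 with a mean value of at least 5 passed in that set of rows without any 1 library, and IVL and PRPH were not tested there.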

How the data were processed

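Per the file headers, the authors deposited variance-stabilised values (log2), 1 row per symbol. FastQC, TopHat, HTSeq, DESeq2 and the build hg38 appear in the submitters' processing notes. Versions, annotation and strand handling are not given there, which leaves overlapping, antisense and near-identical genes uncertain. Low values fall on steps above a floor of 2.466 (log2, a count of 0). Inverting the transform gave whole counts for 100% of non-zero values below 1000 counts (tolerance 0.1). Intervals (95%, exact) cover counting error only.

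Rows constant over the 4 libraries (26916) were left out. The other 29353 were tested between the groups with limma 3.58.1 in R 4.3.3, using trended empirical Bayes variances, Benjamini-Hochberg adjustment and a threshold of 0.05. Alternatives were voom on recovered counts, log2(CPM + 1), other scalings, a filter on the mean value, other variance estimates, a replicate block and leaving out each library. The fit was tested on simulated data. Replicates were not copies of each other (chi-square per degree of freedom 14.9 and 14.7).

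Members and lists were chosen with earlier results of these data known. Named are called members, those with a mean of at least 100 counts and KRTAP2 genes, and per list up to 4 called genes with the largest difference and the gene with the highest mean. Other members, markers and list genes were named after their values were seen. Human sequences, lengths and coordinates were not used here, nor were the mouse table's 24 columns.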

Additional observations from a re-analysis of the deposited data

How the results depend on the processing

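With 2 libraries per group, which members and genes were called changed both with the estimate of the spread and with the library left out. Over all rows, 2069 were higher and 1809 lower. These numbers were 3110 and 2802 with library medians removed, 3462 and 3296 with robust empirical Bayes, and 0 and 0 with no mean-variance trend (limma, 8654 rows with an unadjusted p under 0.05). Lower calls were 3210 among rows with a mean of at least 5. Leaving out 1 library gave 0 to 3820 higher and 0 to 751 lower.

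The 5 members called higher became 8 with library medians removed, 10 with robust empirical Bayes, 0 with no trend (limma, 13 members with an unadjusted p under 0.05) and 0 to 25 without 1 library. Without LY2606368 replicate 1 or replicate 2, rows with no count in untreated cells have no spread left, and members with a single count were then called. The 1 member called lower became 2 with voom on library totals and with quantile normalisation, where KRT8 joined KRT19, 0 with no trend, and 0 to 0 without 1 library. Among rows with a mean of at least 5, leaving out 1 library (an alternative chosen after seeing the data) gave 3 to 5 higher and 1 lower. The call of KRT81 also ended on log2(CPM + 1) (limma adjusted p = 0.0543, range 0.00164 to 0.137).

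The 8 partner and epidermal genes called higher became 5 with voom on library totals or on median-ratio size factors, 0 with no trend and 0 to 22 without 1 library. The 7 called lower became 11 with voom on library totals, 11 with library medians removed, 12 with quantile normalisation, 12 among rows with a mean of at least 5, 13 with robust empirical Bayes, 0 with no trend (limma, 27 of these list genes with an unadjusted p under 0.05) and 0 to 2 without 1 library, or 10 to 12 in rows with a mean of at least 5.

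The median difference of the members, 0.33, was 0.96 with voom on library totals, 1.00 with median-ratio size factors, 0.034 on log2(CPM + 1), 0.34 with medians removed, 0.31 with quantile normalisation, 0.50 among rows with a mean of at least 5, 0.33 to 0.65 without 1 library, and 0.55, 0.44, 0.56 and 0.32 without LY2606368 replicate 1 or 2 or untreated replicate 1 or 2 in rows with a mean of at least 5. The voom fits moved the median of all rows to 0.15 and 0.19.

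Reversed signs concerned members and genes that were not called. KRT15 was 0.082 with quantile normalisation, 0.091 without LY2606368 replicate 2 and 0.050 without untreated replicate 1 (range without 1 library -0.21 to 0.091). KRT79 was 0.26 without LY2606368 replicate 1 and 0.034 without untreated replicate 2 (-0.49 to 0.26). KRT3 was -0.35 without untreated replicate 1 (-0.35 to 1.59), KRTAP16-1 -0.035 without untreated replicate 2 (-0.035 to 0.50) and FLG 0.079 without untreated replicate 1 (-0.67 to 0.079). Those of KRT15, KRT79 and FLG were the same in rows with a mean of at least 5. The cause was not tested.

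With the replicate number as a block, all 6 called members passed and KRT17 joined them, and 2732 rows were higher, 2850 lower and 11 list genes lower. Same-numbered libraries deviated together with a correlation of 0.158 over all rows and 0.511 over rows with a mean of at least 5, but 2 pairs do not settle that the numbers pair the libraries. Depth limits the 32 members with at most 3 counts in any library, whose differences could not be told from a count of 0.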
